A study of Homo sapiens with 6 samples.

Results

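The genes described here are 67 genes of the long arm of chromosome 3 in a table of 995 genes from PANC-1 cells, an established human pancreatic ductal carcinoma line. A gene was a member when its GRCh38 start on chromosome 3 lay above position 98000000. The rule left out CLDN1, HEG1, PARP9, PARP14 and PLSCR1, so 5 genes of the same stretch are not among the 67. The table held another 18 genes of chromosome 3 that start below this position and 882 genes of other chromosomes, while 23 identifiers could not be placed and may hold further genes of the arm. Poly(A)-selected RNA was sequenced from 3 control libraries and 3 shSTYK1 libraries, labelled biological replicates. shSTYK1 cells had received a lentiviral short hairpin RNA against STYK1, a kinase-like membrane protein, in the pLKO.1-puro vector. Resistant clones were picked under puromycin and expanded, and the number of clones behind the libraries and which hairpin they carry are not given in the sources used here. STYK1 is not in the table, so its knockdown was not checked with these values.

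The control and shSTYK1 libraries were the contrast on which the table had been selected, and the arm was taken up because its genes in the table lean one way. The differences between control and shSTYK1 given below are therefore a description of the genes that were chosen. Calls of a limma fit over the whole table are given to set the members beside the other genes and to show what depends on scaling, and they are not independent evidence of a difference. The deposited values are scores per gene, scaled over the 6 libraries to a mean of 0 and an SD of 1. Values with 2 decimals were recovered from them by a whole-number search for all 67 members. Their unit before the logarithm is unknown, so a value is comparable between libraries of 1 gene and not between genes. Sequencing depth is unknown, so no counting interval or floor could be given. A difference is given below as the mean of log2(value + 1) in shSTYK1 minus that in control, with its standard error (SE) from a limma fit over the table. Low values are compressed by the added 1, so their differences come out smaller than on a plain log2 scale. Because the RNA came from bulk cultures, fewer cells that use a gene and less of its RNA per cell cannot be told apart.

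The long arm of chromosome 3, called 3q, is among the chromosome arms most often gained in carcinomas, in particular in squamous tumours of the lung, the head and neck, the oesophagus and the cervix. The gained stretch usually takes in PIK3CA (a lipid kinase catalytic subunit), SOX2 and TP63 (transcription factors of stem and basal cells), TERC (the RNA template of telomerase), PRKCI (an atypical protein kinase C) and MECOM (a transcription factor of blood stem cells). Genes on an arm share their neighbourhood and not their function, and the 67 members include enzymes, traffic proteins, receptors and noncoding transcripts. The libraries hold RNA, and DNA was not measured in them.

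The stretch before the start site is shown for 3 members, chosen on the log2(value + 1) scale with all 6 libraries. They are the largest difference upwards (ST6GAL1), the largest fall (ALCAM) and a member at 5 or more in every control library (B3GALNT1). Members of opposite direction can so be seen side by side. Among members at 5 or more in every control library, RPL22L1 (1.32) and DTX3L (1.31) had slightly larger differences than B3GALNT1 (1.30) and are not shown, because the GENCODE start of RPL22L1 lies too far upstream for the RefSeq window and an annotated exon lies in the stretch before DTX3L. Each is 100 bases of RefSeq sequence on GRCh38.p14, read 5′ to 3′ on the strand of the gene. ST6GAL1 is read from the plus strand at chr3:186930385-186930484, B3GALNT1 from the minus strand at chr3:161105385-161105484 and ALCAM from the plus strand at chr3:105366809-105366908. Capitals mark a GC box, GGGCGG or its reverse complement.
ST6GAL1: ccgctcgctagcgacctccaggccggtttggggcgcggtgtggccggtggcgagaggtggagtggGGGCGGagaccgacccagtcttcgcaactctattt
B3GALNT1: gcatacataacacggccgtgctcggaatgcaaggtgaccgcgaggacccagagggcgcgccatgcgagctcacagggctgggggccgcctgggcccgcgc
ALCAM: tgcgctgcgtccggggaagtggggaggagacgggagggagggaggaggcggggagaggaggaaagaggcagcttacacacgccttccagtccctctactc

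Promoter windows, from 250 bases before to 50 after the RefSeq start, were found by symbol for 54 of the 67 members. GGGCGG stood on either strand in 39 of these 54 windows (72.2%), against 44.6% of all 27305 windows. CCAAT was found in 29.6% of the members' windows and in 35.7% of all windows, and TATAAA in 16.7% and 12%. The median GC content was 63.3% in the members' windows and 58.3% in all windows, so members lay in windows richer in GC than those of the whole annotation. Windows of the other genes of the table were not counted. Whether GC content or motifs are particular to the members was therefore not tested. The motif matches are descriptions of letters and not binding sites. The 3 motifs share no overlapping letters in the stretches printed, where 1 GC box stands before ST6GAL1 and none of the 3 motifs before B3GALNT1 or ALCAM.

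Of the 67 members, 61 (91.0%) had a higher mean in shSTYK1 and 6 had a lower one. In the whole table the directions were nearly balanced, with 496 genes higher and 499 lower. The scores of both groups did not overlap for 59 members that were higher, where 45.5% of all 995 genes were higher without overlap, and for 6 members that were lower, where 48.1% of all genes were lower without overlap. The groups overlapped for NEPRO-AS1, a noncoding transcript, and CFAP44, a protein of cilia and flagella. At 1 or more in at least 3 libraries, 64 members and 740 genes of the table entered the limma fit. With a Benjamini-Hochberg adjusted p under 0.05, 57 members were called higher, beside 51.2% of all genes tested, and 5 were called lower, beside 44.5% of all genes tested. Because the same contrast chose these genes, nothing is read from these shares. The members not called were CFAP44 and NAALADL2, and those under the filter were NEPRO-AS1, CHST13 and MECOM. The median difference was 0.98 on the log2(value + 1) scale over the 64 members tested and 0.545 over all 740 genes tested. Without the filter it was 0.972 over all 67 members and -0.10 over all 994 genes with recovered values, so the median of the table changes sign with the filter. The arm was taken up because its genes lean upwards, so the sign of the members' median was set by that choice.

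**Figure D1:**
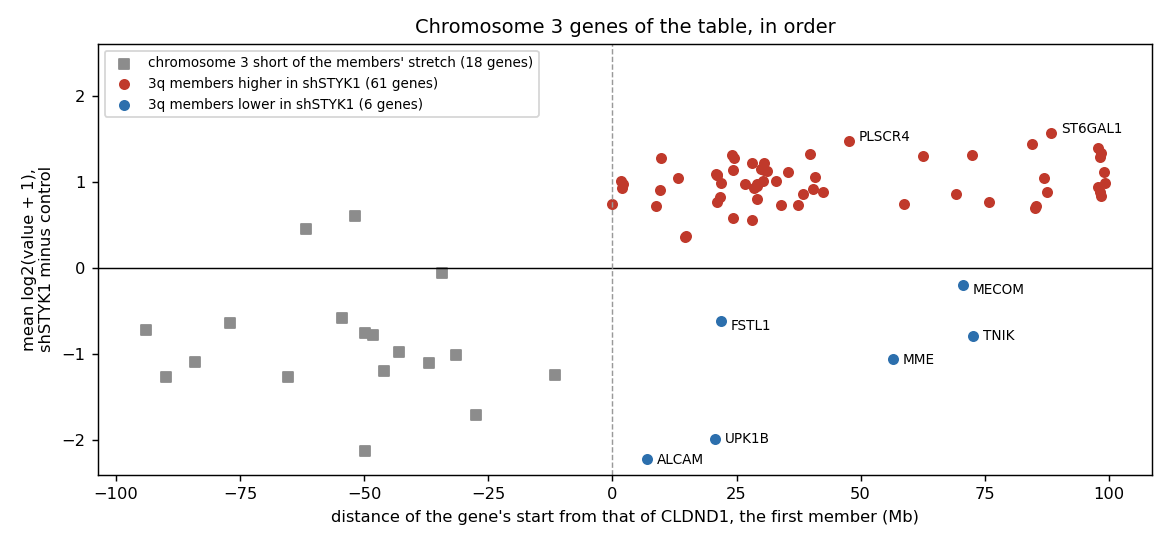
Difference between shSTYK1 and control means of log2(value + 1) for the chromosome 3 genes of the table, against the distance of each gene's start from that of CLDND1 in Mb. The 61 members higher in shSTYK1 (red) span the stretch from CLDND1 onwards, the 6 lower members (blue) lie among them, and 16 of the 18 genes short of CLDND1 (grey) are below 0. The 5 genes left out by the rule are not drawn.

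The ratio of the shSTYK1 mean to the control mean, taken on the recovered values, had a median of 2.24 over the 61 higher members, with quartiles of 1.99 and 2.63. These ratios are on values as recovered. Scaling the libraries by the median of ratios brought the median difference of the members from 0.98 to 0.59. The size factors were 0.856 to 1.03 in control and 1.18 to 1.23 in shSTYK1. They were taken from 874 genes of the table, which had been selected on this same contrast. Sequencing depth and the lean of the selected genes cannot be told apart in them, so 0.59 is not read as a depth-corrected difference. The ratio was between 1.5 and 3 for 53 of the 61 higher members (86.9%) and above 3 for 8. Of the other 432 higher genes of the table that had a ratio, 63.4% lay between 1.5 and 3 and 141 were above 3, with quartiles of 2.04 and 3.38. Where every control library was at 5 or more, the 30 higher members spanned ratios of 1.66 to 2.76 with a median of 2.10, and 85 other higher genes spanned 1.12 to 6.02 with a median of 2.16. Of the higher genes of the table, 17 had a ratio below 1.5, and none of them was a member. The ratio was above 4 for CPNE4 (9.05), CHST13 (5.60), PLSCR4 (4.58) and LAMP3 (4.11), and the control means of all 4 were at most 1.23. The recovered values are known up to a common whole-number factor of value + 1, which leaves the log2(value + 1) difference as it is but would change a ratio, most of all at such low values.

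**Figure D2:**
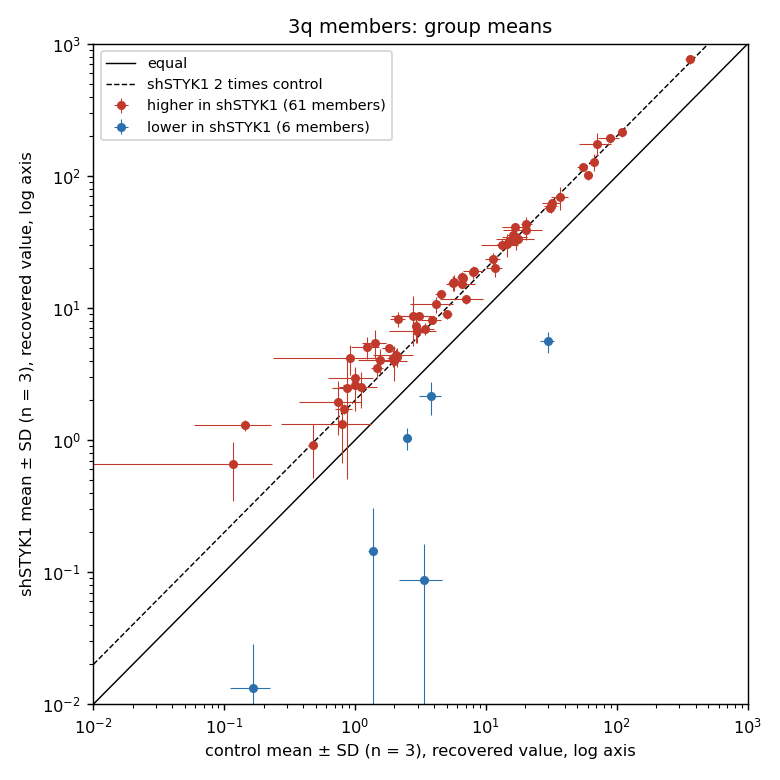
Control mean against shSTYK1 mean of the recovered values for the 67 members on log axes, with bars of 1 SD over 3 libraries (bars that would reach 0 are cut off). Most of the 61 higher members (red) lie along the dashed line at 2 times control, with a median ratio of 2.24, and the 6 lower members (blue) lie under the solid line of equality.

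The members were ordered by known role after their values had been seen. The secretory pathway, with the enzymes that build sugar chains and the lysosome, gave 14 members, all of them higher in shSTYK1, with a median difference of 1.12. ST6GAL1 (chr3:186930485-187078553, 3q27), the sialyltransferase that caps glycoproteins with α2,6-linked sialic acid, was at 2.42, 1.91 and 2.04 in the control libraries against 9.45, 8.13 and 7.34 in the shSTYK1 libraries. Its difference of 1.57 ± 0.14 (SE, n = 3 per group) was the largest upwards among the members tested, with 1 added and all 6 libraries. Every shSTYK1 library of ST6GAL1 lay above every control library. With 0.1 added, CPNE4 (2.58), PLSCR4 (2.24) and LAMP3 (1.96) stood above ST6GAL1 (1.92), and under quantile normalization PLSCR4 (1.66) did (ST6GAL1 1.63). Without control replicate 2, PLSCR4 (1.74) and LAMP3 (1.53) stood above ST6GAL1 (1.52). Without shSTYK1 replicate 2, PLSCR4 (1.65) and MELTF-AS1 (1.59) did (ST6GAL1 1.58). B3GALNT1 (chr3:161083883-161105384, 3q26), the enzyme that makes the glycolipid globoside, was at 5.76, 5.06 and 6.09 in control against 17.25, 13.21 and 15.85 in shSTYK1, a difference of 1.30 ± 0.14. LAMP3 (3q27), a lysosomal membrane protein, stood at 0.92, 1.51 and 1.25 in control against 6.13, 4.38 and 4.62 in shSTYK1, a difference of 1.44 ± 0.16. PDIA5 (3q21), a protein disulfide isomerase of the endoplasmic reticulum, was at 17.94, 18.99 and 12.86 in control against 41.19, 40.94 and 41.56 in shSTYK1. The 3 shSTYK1 values of PDIA5 lay within 0.62 of each other, whereas its control values spread over 6.13.

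The traffic GTPases of the Golgi belonged to the same group. RAB6B (3q22) was at 7.4, 7.71 and 4.7 in control against 15.96, 14.07 and 15.41 in shSTYK1, a difference of 1.11 ± 0.18. RAB43 (3q21) was at 4.46, 5.47 and 2.51 in control against 9.55, 12.34 and 10.12 in shSTYK1, a difference of 1.22 ± 0.23. RAB43 overlaps the read-through gene ISY1-RAB43, itself a member with a difference of 1.14 ± 0.15, so reads shared by these annotations cannot be assigned to one of them and they are not independent. TFG (3q12), which organises the exit sites of the endoplasmic reticulum, was at 109.76, 102.16 and 114.68 in control against 224.53, 196.34 and 223.04 in shSTYK1. Its difference of 0.97 ± 0.12 was one of those called under limma that quantile normalization did not keep, where it was 0.22. PIGX and PIGZ, both parts of the machinery that builds the glycosylphosphatidylinositol anchor, lie in 3q29. PIGX was at 30.37, 28.75 and 35.45 in control against 65.66, 51.91 and 59.35 in shSTYK1, and PIGZ at 2.18, 2.68 and 1.31 in control against 4.12, 4.93 and 4.1 in shSTYK1. CHST13, a chondroitin sulfotransferase under the filter, was at 0.12, 0.23 and 0 in control against 0.63, 0.97 and 0.36 in shSTYK1. The remaining secretory members were TBC1D23, SLC49A4 and SLC35G2, with differences of 1.00, 1.13 and 0.86.

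Mitochondrial, lipid and redox metabolism gave 9 members, all higher, with a median difference of 0.926. The middle member, NIT2, was at 0.53 with scaling by the median of ratios. COX17 (chr3:119654513-119677454, 3q13), the copper chaperone of cytochrome c oxidase, was at 355.71, 336.67 and 388.27 in control against 838.09, 720.97 and 737.71 in shSTYK1, a difference of 1.08 ± 0.13. Under quantile normalization, which sets the ranked values of the libraries equal, its difference was 0.00. The ranks ran over the 994 genes with recovered values, which were selected on the contrast. A gene that keeps its rank in every library gets 0.00 whatever its values, so this result cannot show whether COX17 differed. TIMMDC1 (3q13), an assembly factor of respiratory complex I, was at 59.35, 55.7 and 49.79 in control against 115.11, 119.15 and 116.77 in shSTYK1, a difference of 1.08 ± 0.12. NIT2 (3q12), an omega-amidase, was at 67.35, 61.15 and 71.58 in control against 125.98, 110.04 and 149.0 in shSTYK1. SLC25A36 (3q23), a nucleotide carrier of the inner mitochondrial membrane, was at 33.09, 34.56 and 42.84 in control against 76.02, 53.65 and 78.1 in shSTYK1, with replicate 2 the lowest of the shSTYK1 libraries. LIPH (3q27), a phospholipase that releases lysophosphatidic acid, was at 14.5, 15.21 and 15.12 in control against 32.2, 30.59 and 33.26 in shSTYK1, with little spread in either group. TXNRD3, a thioredoxin reductase, differed by 1.22 ± 0.12 and MGLL, the lipase of monoacylglycerols, by 0.80 ± 0.14. ADPRH and ACAD11, an acyl-CoA dehydrogenase, had differences of 0.76 and 0.73. Scaling by the median of ratios brought ACAD11 to 0.35, no longer past the limma threshold.

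Cell surface, signalling and cytoskeleton formed the largest group, with 20 members, 15 of them higher and 5 lower, and a median difference of 0.938. MRAS (chr3:138347648-138405534, 3q22), a small GTPase related to RAS, was at 4.59, 4.94 and 4.08 in control against 12.73, 12.2 and 13.58 in shSTYK1, a difference of 1.32 ± 0.12. PLXND1 (3q22), a receptor for semaphorins, was at 81.33, 107.02 and 77.46 in control against 186.89, 211.48 and 182.06 in shSTYK1, a difference of 1.13 ± 0.16 that was 0.41 under quantile normalization. PLXNA1 (3q21), another semaphorin receptor, was at 12.63, 23.79 and 16.56 in control against 32.63, 35.7 and 32.08 in shSTYK1. In both plexins replicate 2 was the highest library of each group.

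PLSCR4 (3q24), a phospholipid scramblase, was at 0.46, 1.69 and 0.59 in control against 4.6, 2.96 and 4.98 in shSTYK1, a difference of 1.47 ± 0.26. Replicate 2 was the highest control library and the lowest shSTYK1 library of PLSCR4, and the groups did not overlap. TM4SF19 (3q29), a tetraspanin-like membrane protein, was at 1.21, 1.76 and 1.32 in control against 6.85, 5.31 and 4.18 in shSTYK1, a difference of 1.39 ± 0.18. It shares a read-through transcript with its neighbour DYNLT2B, also a member. MYH15 (3q13), a myosin heavy chain, was at 6.12, 7.2 and 6.34 in control against 17.08, 15.87 and 18.97 in shSTYK1, a difference of 1.28 ± 0.13. CPNE4 (3q22), a copine that binds phospholipid with calcium, was at 0.06, 0.14 and 0.23 in control against 1.44, 1.22 and 1.23 in shSTYK1, and its difference of 1.01 ± 0.12 on the log2(value + 1) scale is far smaller than its ratio of 9.05.

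Among the other higher members of this group were regulators of the cell's edge. ARHGAP31 (3q13), which switches off the GTPases CDC42 and RAC1, was at 1.86, 2.01 and 1.59 in control against 5.17, 4.82 and 5.03 in shSTYK1. PHLDB2 (3q13), which anchors microtubules at the cell cortex, was at 19.59, 19.01 and 22.63 in control against 47.79, 36.89 and 45.03 in shSTYK1. NRROS (3q29), a membrane protein that holds latent TGF-β, differed by 1.28 ± 0.19, and it overlaps PIGX on the same strand, so their reads may be shared. CLDND1, PPP2R3A, SERPINI1 and TPRA1 had differences of 0.75, 0.73, 0.86 and 0.95. With scaling by the median of ratios these were 0.35, 0.37, 0.57 and 0.56. NAALADL2 (3q26) was at 0.63, 0.96 and 1 in control against 1.58, 1.11 and 4.73 in shSTYK1, with replicate 3 far above the other libraries, and its difference of 0.76 ± 0.34 was not called and was 0.33 without that library. It was called with the replicate block (0.76), without shSTYK1 replicate 2 (1.05) and under quantile normalization (0.97).

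The nucleus, ubiquitin ligases and the ribosome gave 9 members, 8 higher and 1 lower, with a median difference of 0.976. RPL22L1 (chr3:170864875-170870483, 3q26), a paralogue of a protein of the large ribosomal subunit, was at 68.04, 53.4 and 91.43 in control against 210.02, 142.47 and 176 in shSTYK1, a difference of 1.32 ± 0.22 that was 0.72 under quantile normalization. DTX3L (chr3:122564238-122575203, 3q21), a ubiquitin ligase that works with PARP9 in the response to interferon and DNA damage, was at 5.46, 5.42 and 6.15 in control against 17.01, 13.16 and 16.75 in shSTYK1, a difference of 1.31 ± 0.14. DTX3L overlaps PARP9 on the opposite strand, and the sources used here do not say whether the counting used strand. ETV5 (3q27), a transcription factor of the ETS family, was at 28.09, 34.1 and 30.32 in control against 56.46, 56.86 and 58.76 in shSTYK1, a difference of 0.88 ± 0.12 (0.58 under quantile normalization and 0.48 with scaling by the median of ratios). ZNF148 (3q21), a zinc finger transcription factor, was at 11.61, 9.8 and 12.79 in control against 24.16, 20.41 and 25.55 in shSTYK1. LRRC58 (3q13), a leucine-rich repeat protein, was at 16.12, 13.64 and 20.89 in control against 39.48, 26.37 and 37.31 in shSTYK1. ABTB1 and FOXL2NB differed by 0.98 and 0.92. KLHL24, an adaptor of cullin ubiquitin ligases, differed by 0.70 ± 0.21 and lost its call at 0.34 with scaling by the median of ratios. RPL22L1, LRRC58 and ZNF148 each had replicate 2 as the lowest library of both groups.

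The cilium and dynein group held IFT57, a protein of intraflagellar transport, DYNLT2B, a dynein light chain, and CFAP44. IFT57 was at 16.37, 16.03 and 18.4 in control against 36.28, 31.29 and 30.5 in shSTYK1, and DYNLT2B differed by 0.95 ± 0.16. CFAP44 was at 0.8, 1.33 and 0.27 in control against 1.47, 0.61 and 1.91 in shSTYK1, and shSTYK1 replicate 2 lay within the control range. The remaining 12 members were noncoding transcripts, pseudogenes or genes without a name, all higher, with a median difference of 0.905. MELTF-AS1 (3q29), an antisense transcript of the melanotransferrin gene, was at 2.05, 3.77 and 2.5 in control against 12.65, 5.52 and 8.09 in shSTYK1, a difference of 1.33 ± 0.28. GATA2-AS1 (3q21), antisense to the blood transcription factor gene GATA2, was at 10.71, 18.24 and 11.12 in control against 28.12, 33.67 and 28.38 in shSTYK1. GSK3B-DT, ACAD9-DT and COPB2-DT, divergent transcripts named for their coding neighbours, differed by 0.83, 1.01 and 1.06, and the long noncoding transcripts DUBR and LINC02035 by 0.71 and 0.58. DUBR lost its call at 0.42 with scaling by the median of ratios. SDHAP4, a pseudogene of a subunit of succinate dehydrogenase, was at 15.11, 15.15 and 17.91 in control against 36.02, 34.47 and 37.39 in shSTYK1, with little spread in either group. Reads of SDHAP4 and of its neighbour PPP4R2P4, also a pseudogene, may have been split with their near-identical copies elsewhere in the genome, so both values are uncertain. Without strand, reads of the antisense transcripts and of their partners cannot be told apart. NEPRO-AS1 was at 0.51, 0.48 and 0.43 in control against 0.51, 0.94 and 1.32 in shSTYK1, with shSTYK1 replicate 1 equal to the highest control library.

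**Figure D3:**
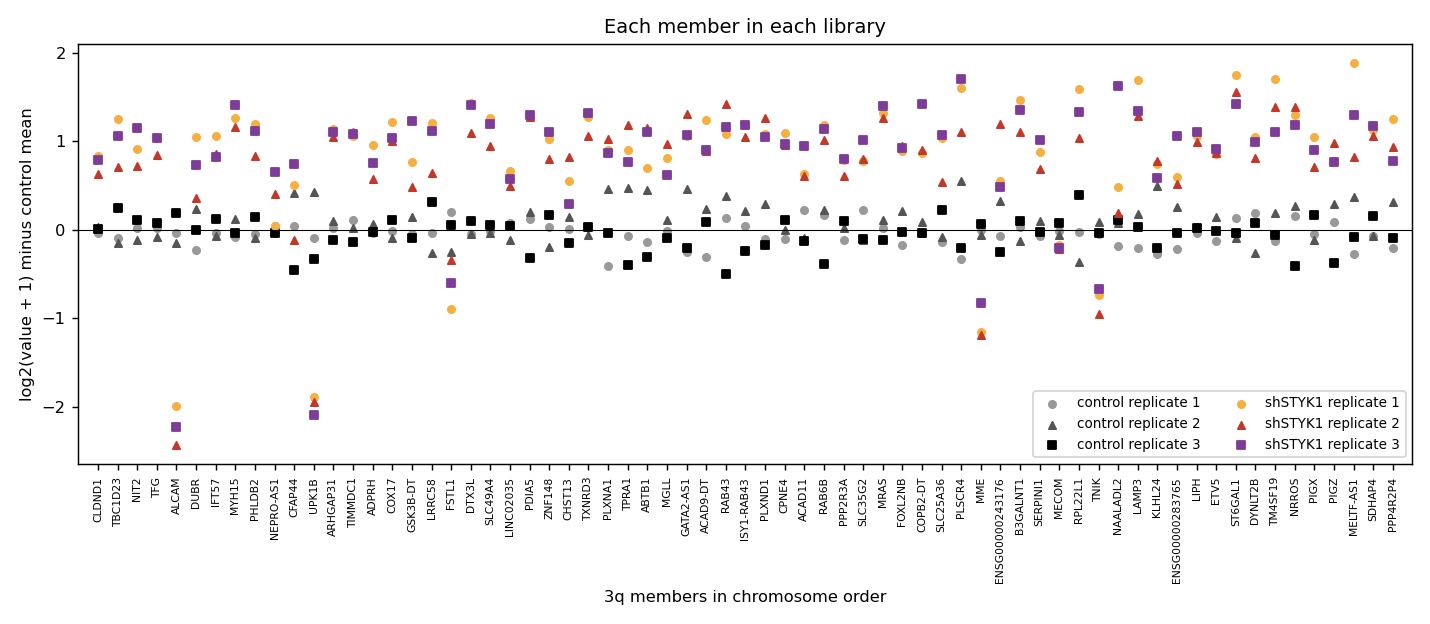
log2(value + 1) in each library minus the control mean, for the 67 members in chromosome order; greys and black are the 3 control libraries and colours the 3 shSTYK1 libraries. For the 59 higher members without overlap every coloured point is above every grey one, and shSTYK1 replicate 2 (red triangles) is often the lowest of its group.

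The members that went against the arm were ALCAM, UPK1B, FSTL1, MME, TNIK and MECOM. In all 6 the groups did not overlap, as in 479 of the 499 lower genes of the whole table. ALCAM (chr3:105366909-105576900, 3q13), the adhesion molecule CD166, was at 28.72, 26.59 and 33.8 in control against 6.66, 4.65 and 5.5 in shSTYK1, a difference of -2.22 ± 0.16 and the largest in size of any member tested with 1 added to the values. With 0.1 added, ALCAM was at -2.39 and was passed in size by UPK1B at -4.27, MME at -2.79 and CPNE4 at 2.58. Without control replicate 3 and with 1 added, UPK1B (-2.15) passed ALCAM (-2.13). UPK1B (chr3:119173517-119205153, 3q13), a tetraspanin of the urothelial plaque, was at 3.02, 4.75 and 2.39 in control against 0.15, 0.11 and 0 in shSTYK1, a difference of -1.98 ± 0.20 that depends on the value added, as its shSTYK1 values are near 0. MME (chr3:155024124-155183729, 3q25), the cell surface peptidase neprilysin or CD10, was at 1.36, 1.27 and 1.48 in control against 0.06, 0.04 and 0.33 in shSTYK1, a difference of -1.06 ± 0.14 that depends on it likewise. MME overlaps an antisense gene, MME-AS1. TNIK (chr3:171061339-171460408, 3q26), a kinase that acts with TCF4 and β-catenin, was at 2.37, 2.72 and 2.42 in control against 1.1, 0.81 and 1.19 in shSTYK1, a difference of -0.79 ± 0.13. FSTL1 (chr3:120392293-120451253, 3q13), a secreted glycoprotein of mesenchymal cells, was at 4.49, 3.01 and 3.93 in control against 1.57, 2.76 and 2.13 in shSTYK1, a difference of -0.61 ± 0.18, and its groups came within 0.25 of each other. MECOM (chr3:169083499-169663618, 3q26) was under the filter, at 0.15, 0.12 and 0.23 in control against 0.03, 0 and 0.01 in shSTYK1. Of the 6 lower members, 5 were cell surface, secreted or signalling proteins and MECOM was the nuclear one. Each had higher members as neighbours in the table, with TNIK lying 0.19 Mb from RPL22L1 and FSTL1 lying 0.04 Mb from LRRC58.

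Of 62 genes of the arm held in a list of genes that gains of 3q in carcinoma are known for, 3 were members. ETV5 and LAMP3 were higher, with the values given above, and MECOM was lower. CLDN1, also on the list, is in the table but left out by the rule. The other 58 were not in the table, among them PIK3CA, SOX2, TERC, PRKCI, ECT2, TP63, SKIL, BCL6, DCUN1D1, EIF4G1, TBL1XR1, FXR1, ACTL6A, TFRC and IGF2BP2. The table holds selected genes, so the absence of a gene says that it was not selected and gives no level for it. In the stretch from 3q26 to 3q29, where most genes of the list lie, the table held 20 members, of which 18 were higher.

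Lists of 3q genes by function, chosen with earlier results of these data known, are given by their counts and by the median difference of their members, beside a median of -0.10 over all genes with recovered values and of 0.545 over the genes tested. Of all genes tested, 51.2% were called higher and 44.5% lower, and these genes were selected on the same contrast. Of 66 genes for transport, membrane and mitochondrial metabolism on the arm, 11 were members and 10 were called higher, with a median difference of 0.882 over the 11. Of 42 for protein turnover and vesicle traffic, 4 were members (LAMP3, KLHL24, RAB6B and RAB43), all called higher, with a median of 1.16. Of 53 for receptors and signalling, 7 were members, 5 called higher and 2 lower (ALCAM and TNIK), with a median of 1.09. Of 49 for adhesion, matrix and cytoskeleton, 8 were members, 5 called higher and 3 lower (ALCAM, MME and FSTL1), with a median of 0.885. Of 37 for transcription and chromatin, 6 were members and 5 were called higher, with a median of 0.925, but of these ETV5 and ZNF148 are transcription factors, while TFG, KLHL24 and LRRC58 have other roles. Of 37 for RNA processing and translation, RPL22L1 and TIMMDC1 were members and called higher, and TIMMDC1 is a mitochondrial protein. Of 24 for the cell cycle, DNA replication and repair, DTX3L was the 1 member, and MCM2, TOPBP1, ATR, POLQ and RFC4 were not in the table.

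Members were found in every band from 3q11 to 3q29 except 3q28. The most were in 3q13, with 15 members of which 12 were higher, and in 3q21, with 15 members that were all higher. The 8 members of 3q22 and the 8 of 3q29 were all higher, as were the 6 of 3q27, while 4 of the 6 in 3q26 were. Counting the 5 genes left out, the table held 61 of the 559 annotated protein-coding genes of the arm (10.9%) and 785 of 19350 in the rest of the genome (4.06%). The share ran from 21.4% in 3q21 (15 of 70) to 1.49% in 3q25 (1 of 67, MME). The longest stretch between neighbouring members was 9.21 Mb, from ST6GAL1 to DYNLT2B, followed by 8.77 Mb from PLSCR4 to MME and 7.31 Mb from NAALADL2 to LAMP3. Members within 10 kb of each other were joined into 60 loci, so most members have no other member next to them.

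The boundary set by the rule lay between VGLL3 and CLDND1. VGLL3, a cofactor of TEAD transcription factors and the last gene short of the boundary, was at 1.56, 1.39 and 1.65 in control against 0.11, 0.04 and 0.06 in shSTYK1. CLDND1 (3q11), a claudin-like membrane protein and the first member, was at 58.4, 60.94 and 60.29 in control against 107.37, 92.71 and 103.79 in shSTYK1. FOXP1 and KBTBD8, the next genes short of the boundary, were also lower in shSTYK1, and TBC1D23 and NIT2, the next members, were higher. Of the 18 genes of chromosome 3 that start below 98 Mb, 2 were higher (TRANK1 and TMIE) and 16 lower. No table gene lay between VGLL3 and CLDND1, 11.5 Mb apart, so the place at which the direction changes is not given more closely by these genes. Another stretch that leaned one way, the short arm of chromosome 1 below 60 Mb, had 3 genes higher and 37 lower.

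Within the groups, replicate 2 was often the highest control or the lowest shSTYK1 library of a member. Control replicate 3 had the strongest relation to GC content. Control replicate 2 was the highest control library for 36 of the 64 members tested (56.2%), against 49.4% of the other genes tested. shSTYK1 replicate 2 was the lowest shSTYK1 library for 42 members (65.6%), against 36.8% of the other genes. The deviation of a library from its group mean was set beside the GC content of the longest annotated transcript. Across 62 members, Pearson's r was 0.45 for control replicate 2 (Spearman's rho 0.45), -0.57 for control replicate 3 (rho -0.60) and 0.45 for shSTYK1 replicate 2 (rho 0.51). It was 0.07 for control replicate 1 (rho 0.11), -0.24 for shSTYK1 replicate 1 (rho -0.38) and -0.27 for shSTYK1 replicate 3 (rho -0.30). These correlations run across genes that share their libraries, and they are descriptions. Across 658 other genes r was 0.43, -0.45 and 0.38 for control replicates 2 and 3 and shSTYK1 replicate 2, and 0.01, -0.25 and -0.17 for control replicate 1 and shSTYK1 replicates 1 and 3. For the difference between the groups and GC content, r was 0.23 (rho 0.28) across the members and 0.01 (rho 0.01) across the other genes. Among the 31 members above the median GC content of 45.4%, control replicate 2 was the highest control library for 25 and the median difference was 1.05. Among the 31 at or below it, control replicate 2 was the highest for 10 and the median difference was 0.926. The part of GC content in the differences was not tested. Without any 1 of the 6 libraries, the median difference of the members stayed between 0.94 and 1.04.

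**Figure D4:**
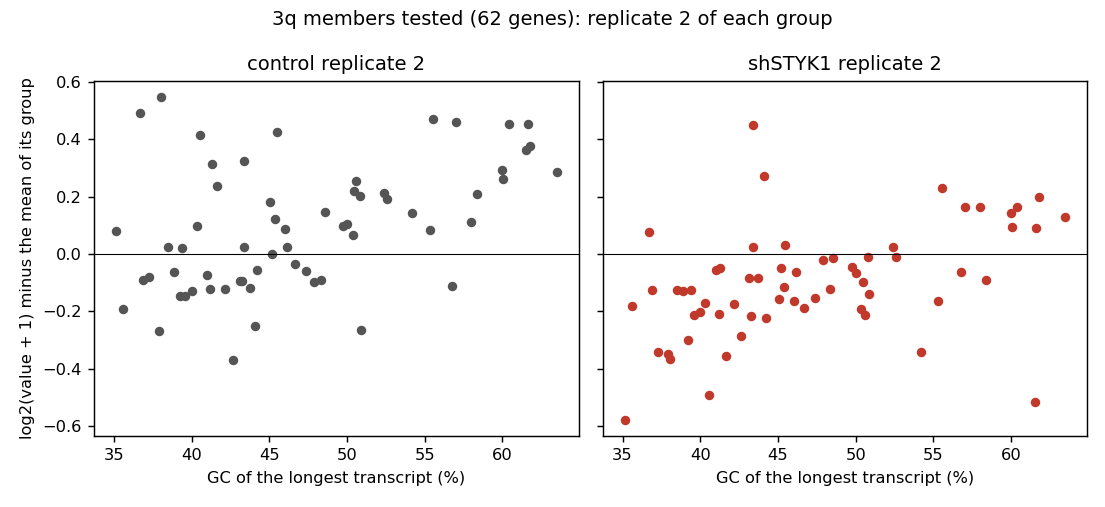
Deviation of replicate 2 of each group from its group mean on the log2(value + 1) scale, against the GC content of the longest transcript in percent, for 62 members; each point is a gene. Points climb to the right in both panels (r = 0.45 in each), and most shSTYK1 replicate 2 points lie below 0. Control replicate 3, with r = -0.57, is not drawn.

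Markers of cell types were few in the table, which holds selected genes. Of 13 markers of pancreatic ductal carcinoma epithelium, CDH1 (E-cadherin) was the 1 in the table, at 0.1, 0.27 and 0.28 in control against 0.94, 0.85 and 0.9 in shSTYK1. Of 11 fibroblast or stellate cell markers, COL1A1 was in the table, at 26.7, 42.2 and 22.2 in control against 3.12, 3.73 and 2.94 in shSTYK1. Of 8 endothelial markers, KDR was in the table, at 0.26, 0.54 and 0.44 in control against 0 in every shSTYK1 library. None of 11 leukocyte markers and none of 9 acinar or islet markers was in the table. COL1A1 and KDR fell on the side of the 6 lower members and CDH1 on the side of the 61 higher ones, and the part of these markers in the members' differences was not tested.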

How the data were processed

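RNA of 3 control and 3 shSTYK1 PANC-1 cultures was measured. The authors deposited a score per gene and library, centred on 0 for each gene and divided by its SD over the libraries (divisor 6). The submitters' processing notes name RSEM, DESeq2 and GRCh38, with no version or role. Depth is unknown and limits precision to the spread of 3 libraries. The members and lists were chosen with earlier results of these data known.

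A whole-number search found the values with 2 decimals behind the scores, taken as scaled log(value + 1), (Python 3.11.15, numba 0.67.0) for 994 of 995 genes, up to a common whole-number factor of value + 1. The search limit was 2000. Positions came from GENCODE 29 (965 genes) or RefSeq symbols (7 genes). limma 3.58.1 (R 4.3.3) was fitted to log2(value + 1) of the 740 genes that reached 1 in 3 or more libraries, and p-values were adjusted by Benjamini-Hochberg. On simulated data both steps were checked.

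Named were the 8 members with the largest positive difference, all lower members, members of the 3q gain list and the 3 largest of each functional list. Others were named after their values were seen. Whether the libraries came from separate clones is not given. Alternatives were another pseudocount, 2 scalings, other filters, each library left out, a replicate block and the scores themselves.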

Additional observations from a re-analysis of the deposited data

How the results depend on the processing

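All 13 alternatives kept the direction of the members tested in each, except that COX17 was at 0.00 under quantile normalization. That scaling gives 0.00 to any gene that keeps its rank in every library. With each library left out, the genes of the table called higher ran from 365 to 378 and those called lower from 324 to 328, the members called higher from 57 to 58 and the members called lower stayed at 5, and the members' median difference ran from 0.9360 to 1.0427. With the same libraries left out, members without overlap ran from 59 to 60 higher and stayed at 6 lower. A filter of at least 5 kept 327 genes and 42 members, so that 194 genes were called higher and 130 lower, and of the members 41 and 1. Scaling by the median of ratios, with factors taken from these selected genes, moved the median difference over the 740 genes tested from 0.545 to 0.298. The members' median moved to 0.5932, with 54 members called higher and 5 lower. It lowered 32 of the 64 members tested by over 1.5 times, among them CLDND1 (0.35), NIT2 (0.53), SLC25A36 (0.49), PIGX (0.49), TIMMDC1 (0.68) and TPRA1 (0.56). ACAD11, KLHL24 and DUBR then lost their call, and the share of calls in the table that were higher went from 53.5% to 49.5%. Depth and the lean of the selected genes cannot be told apart in these factors, so the lost calls are not read as a correction for depth. Quantile normalization gave a median difference of 0.551 over the 740 genes tested and took the call from TFG (0.2199) and COX17. It lowered CLDND1 (0.42), NIT2 (0.54), PLXND1 (0.41), SLC25A36 (0.58), RPL22L1 (0.72), ETV5 (0.58) and PIGX (0.58) by over 1.5 times. A pseudocount of 0.1 raised the members' median to 1.0990 and kept 57 members called higher and 5 lower, and it moved genes with low values by over 1.5 times, among them UPK1B (-4.27), MME (-2.79), TNIK (-1.21), CPNE4 (2.58) and PLSCR4 (2.24). NAALADL2 was called under quantile normalization (0.9745), without shSTYK1 replicate 2 (1.0510) and with the replicate block (0.7625), and the cause was not tested. Without a filter, 455 genes were called higher and 460 lower. On the scores, 465 and 484 were called, with 59 members higher and 6 lower. The labels do not say whether libraries of the same number were paired. Deviations of same-numbered libraries correlated at -0.22, 0.19 and 0.05 over 740 genes and at -0.25, 0.29 and 0.19 over the 64 members tested. The fit with the replicate block called 58 members higher and 5 lower, and 385 and 329 genes of the table. Genes that the authors did not select give no values, and the unknown depth gives no floor.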
